A study of Mus musculus with 180 samples.

Results

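Midostaurin and Momelotinib, 2 clinical kinase inhibitors (CKIs), were set directly against each other in LPS-stimulated mouse macrophages, without DMSO as the reference. The comparison consists of 6 of the 180 RNA-seq samples of the series, 3 for each compound, and it was read over the 12714 of 45070 genes whose normalized value averaged 10 or more across the 180 samples. The cells were bone marrow-derived macrophages (BMDM), grown in culture from the marrow of wild type C57/BL6 mice. They received a compound or the solvent DMSO for 1 h and then 10 ng/ml of LPS, a bacterial lipopolysaccharide, for 2 h. Every sample shown here, DMSO included, was therefore LPS-stimulated. The 6 DMSO samples, which the labels divide into 2 sets of 3, are given beside the members only as a background level. Each CKI was used at a single concentration, Midostaurin at the one that gave the midpoint of binding to TBK1 and Momelotinib at the one that did so for the related kinase IKBKE in a kinobeads assay, so the concentrations were set on different kinases and are not matched. The methods describe the replicates as independent biological ones, and the labels do not tie them to single animals.

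LPS binds TLR4, which signals through the adaptor MyD88 to NF-kB and MAP kinases and through the adaptor TRIF to the kinases TBK1 and IKBKE. TBK1 and IKBKE phosphorylate the transcription factor IRF3, which switches on Ifnb1, the gene of interferon-β. The secreted interferon then binds its receptor IFNAR on the same and on neighbouring macrophages, and the receptor-bound kinases JAK1 and TYK2 activate STAT transcription factors, which induce interferon-stimulated genes (ISGs). Midostaurin inhibits many kinases and is a drug for acute myeloid leukaemia with mutated FLT3 and for systemic mastocytosis. Momelotinib, an inhibitor of Janus kinases (JAKi), is a drug for myelofibrosis.

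The 6 samples held between 10160259 and 10962421 normalized reads in total, and the estimated number of exonic reads behind them was 11068250 to 12814603. Mitochondrially encoded transcripts made up 0.525% to 0.899% of the total, the highest share being that of Midostaurin replicate 3. Spearman correlations across genes ran from 0.982 to 0.991 within a compound and over the same range between the compounds, so neither compound's samples stood apart on this measure. Of 23 macrophage markers 1, Marco, lay under 10 in all 6 samples. Among the markers of other cells this held for 9 of 12 lymphoid genes, with Cd3e and Cd3d at 0 throughout, for 10 of 12 stromal and erythroid genes, for 3 of 8 dendritic cell genes and for 2 of 10 neutrophil genes. None of the tested markers of any of these lists differed between the compounds at an adjusted p under 0.05. In bulk RNA fewer cells of a type and less RNA per cell cannot be told apart.

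Few genes separated the compounds. At an adjusted p under 0.05 in limma's moderated test, 37 of the 12714 genes differed (0.291%), of which 21 were higher (0.165%) and 16 lower (0.126%) with Midostaurin than with Momelotinib. The lower genes included Ifnb1, the ISGs Rsad2 and Oasl1, the chemokine gene Ccl2 and the kinase gene Sgk1, while the higher genes included Myc, Fosl2 and the receptor genes Gpr35, Gpr146 and Il4ra. The 3 Midostaurin values lay wholly outside the 3 Momelotinib values in all 37 DEGs, and this was also so in 1054 genes overall (8.29%), 534 higher (4.2%) and 520 lower (4.09%), most of which the test did not call. The median absolute log2 difference over all genes was 0.113, and 409 genes (3.22%) had an unadjusted p under 0.05. A fit that took the replicate number as a block called 83 genes (0.653%), 54 higher (0.425%) and 29 lower (0.228%), among them all of the 37.

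**Figure D1:**
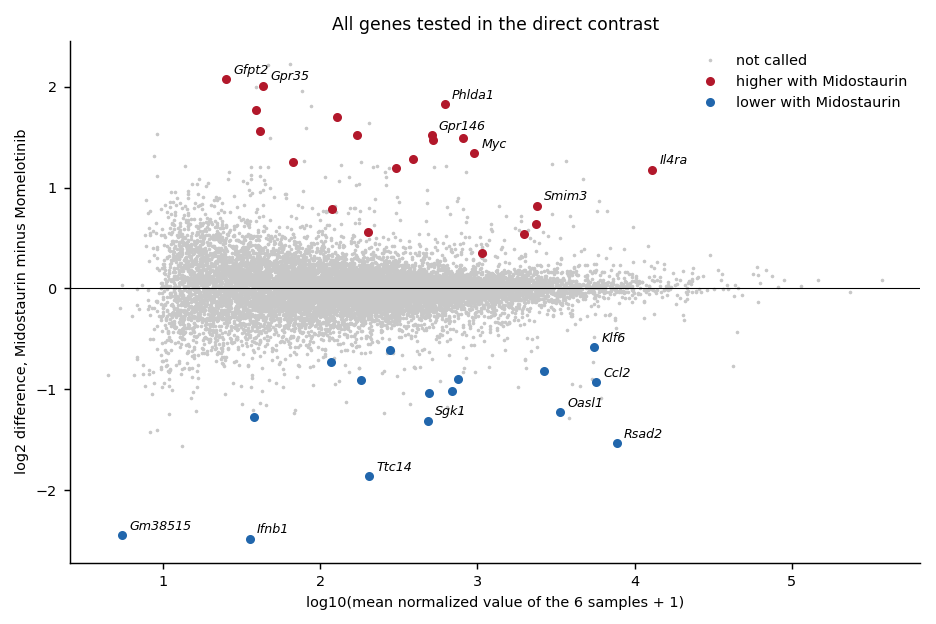
Log2 difference of Midostaurin minus Momelotinib (vertical axis, log2 of normalized value + 1) against the mean normalized value + 1 of the 6 samples (horizontal axis, log10) for each of the 12714 genes, with the 37 DEGs in colour. The DEGs run from Ifnb1 at −2.48 to Gfpt2 at 2.07, while the median gene lies at an absolute difference of 0.113.

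The number of DEGs fell when any single library was left out. It was 17, 16 and 23 without Midostaurin replicate 1, 2 or 3 and 29, 17 and 20 without Momelotinib replicate 1, 2 or 3. Such fits also have fewer samples, so a lost call does not by itself show that 1 library drove a difference. Smim3, Phlda1, Gpr146, Myc, Atf3, Ccl2, Ppp1r15a, Necap1, Sgk1 and Ifnb1 remained past the threshold in all 6 of these fits, and the other 27 DEGs lost the call in at least 1. In the fit with the replicate block, which kept all samples, these 27 were called as well. Differences are given below as Midostaurin minus Momelotinib in log2(normalized value + 1) ± SE of the fit, and folds are ratios of the means of normalized values.

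**Figure D2:**
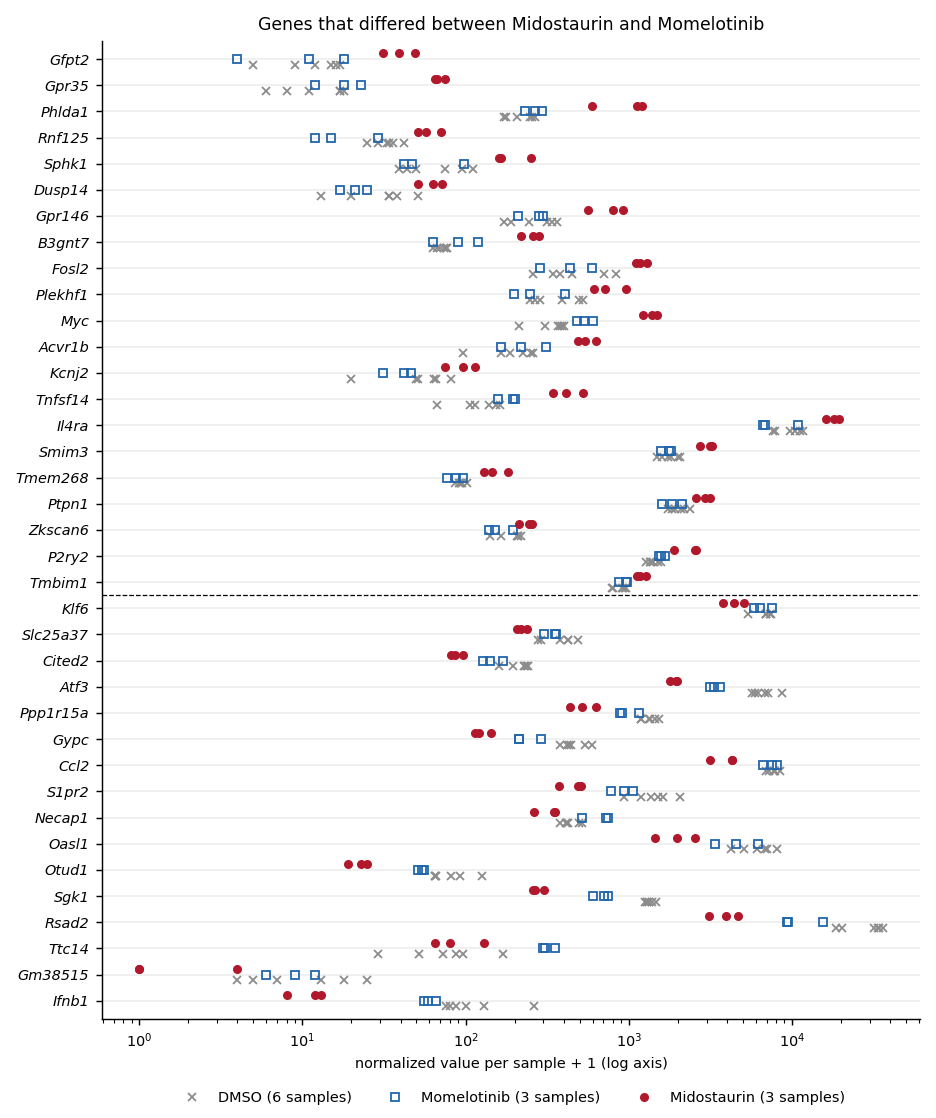
Normalized value + 1 (horizontal axis, log scale) of each of the 37 DEGs in every Midostaurin, Momelotinib and DMSO sample, 1 point a sample, with genes higher and lower with Midostaurin on either side of the dashed line. In every row the 3 Midostaurin points and the 3 Momelotinib points form separate groups, as for Ifnb1 with 7 to 12 against 55 to 65.

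The DEG with the largest difference in either direction was Ifnb1, on mm10 chr4:88522025-88522794, minus strand. Its normalized values were 11, 7 and 12 with Midostaurin and 55, 65 and 58 with Momelotinib, while the 6 DMSO samples ran from 75 over a median of 92.5 to 262. All 3 Midostaurin values were thus far below all 3 Momelotinib values, and both groups lay below the lowest DMSO sample. The mean was 5.93-fold lower with Midostaurin, a difference of −2.48 ± 0.46 (95% confidence interval −3.39 to −1.57, adjusted p = 0.000526). With 1 library left out at a time it stayed between −2.62 and −2.27. Midostaurin values of about 10 reads carry a large counting error, so the size of the difference is less well fixed than its direction, and with a pseudocount of 10 it read −1.80 (adjusted p = 0.0277).

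The 250 bases before the start of Ifnb1, Rsad2 and Oasl1 are shown because these are the interferon genes that separated the compounds and because IRF and ISGF3 factors bind GAAA-rich elements of this kind. The windows are RefSeq sequence on GRCm38.p6 and read 5′ to 3′ along the gene. They are Ifnb1 at chr4:88522795-88523044 on the minus strand, Rsad2 at chr12:26456453-26456702 on the minus strand and Oasl1 at chr5:114922990-114923239 on the plus strand. In Ifnb1 the capitals mark 3 matches to AANNGAAA, a looser IRF motif, and then 2 matches to a looser NF-kB motif, GGG and CC with 5 free bases between them, the second of which reads on the opposite strand. In Rsad2 they mark the stricter interferon-stimulated response element (ISRE), GAAA repeated after 2 free bases, here on the opposite strand, and in Oasl1 they mark 3 matches to AANNGAAA, the first on the opposite strand. Other matches are left in small letters. The Rsad2 and Oasl1 windows also hold the looser NF-kB motif, and the Rsad2 window also holds TGANTCA, an AP-1 motif. 
Ifnb1: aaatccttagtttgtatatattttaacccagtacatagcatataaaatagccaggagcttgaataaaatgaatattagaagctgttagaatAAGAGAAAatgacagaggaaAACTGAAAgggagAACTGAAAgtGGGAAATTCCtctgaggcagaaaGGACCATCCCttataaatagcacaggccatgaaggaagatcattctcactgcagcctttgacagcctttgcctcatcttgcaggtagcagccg
Rsad2: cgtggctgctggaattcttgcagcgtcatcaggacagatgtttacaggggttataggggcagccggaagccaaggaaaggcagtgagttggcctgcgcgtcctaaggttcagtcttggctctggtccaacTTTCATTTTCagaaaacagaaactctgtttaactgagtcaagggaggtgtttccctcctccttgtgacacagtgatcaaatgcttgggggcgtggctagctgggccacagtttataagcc
Oasl1: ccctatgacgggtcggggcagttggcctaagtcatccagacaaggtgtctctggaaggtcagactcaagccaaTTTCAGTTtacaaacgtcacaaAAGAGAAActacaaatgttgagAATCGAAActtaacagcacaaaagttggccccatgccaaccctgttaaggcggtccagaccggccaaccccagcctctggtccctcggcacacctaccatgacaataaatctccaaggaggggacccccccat
The Ifnb1 matches to AANNGAAA begin 159, 139 and 126 bases before the start and those to the looser NF-kB motif begin 116 and 93 bases before it. The Rsad2 match begins 120 bases and the Oasl1 matches 177, 155 and 133 bases before the start. Such letters are common: AANNGAAA is found on either strand in 21.3% of the 32851 RefSeq windows of this length and the looser NF-kB motif in 45.8%, against 2.98% for the ISRE.

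Of the 79 tested ISGs of a list of 81, 2 were lower (0.126% of all genes) and none was higher (0.165%) with Midostaurin, in the main fit and with the replicate block alike. Rsad2, which encodes the antiviral protein viperin, read 4672, 3097 and 3921 with Midostaurin, 15453, 9492 and 9389 with Momelotinib and 18749 to 36278 in DMSO. The 3 groups formed a descending order without overlap from DMSO over Momelotinib to Midostaurin. The Rsad2 mean was 2.94-fold lower with Midostaurin than with Momelotinib (−1.53 ± 0.33, adjusted p = 0.00703), and the adjusted p rose to 0.121 without Midostaurin replicate 2 and to 0.151 without Momelotinib replicate 1. Oasl1, an oligoadenylate synthetase-like protein that restrains Irf7 translation in mice, read 2565, 1987 and 1452 with Midostaurin and 6230, 4523 and 3390 with Momelotinib. All 3 Midostaurin values of Oasl1 fell below the DMSO range of 4255 to 8130, and 2 of the 3 Momelotinib values lay inside it. Each Momelotinib value was below both DMSO samples of the same replicate number. Against DMSO, Momelotinib gave −0.42 ± 0.21 (adjusted p = 0.480, or 0.185 with the replicate block). The Oasl1 mean was 2.36-fold lower with Midostaurin than with Momelotinib (−1.23 ± 0.24, adjusted p = 0.00158), with an adjusted p of 0.0967 without Midostaurin replicate 3 and 0.0836 without Momelotinib replicate 1.

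The remaining 77 ISGs did not pass the threshold. Cmpk2, which lies next to Rsad2 and encodes a nucleotide kinase, read 2432, 2170 and 2024 against 6817, 4705 and 4803, without overlap, but its difference of −1.28 (interval −2.17 to −0.40) had an adjusted p of 0.515. The Ifit genes, which encode proteins that bind foreign RNA, also leaned lower with wide intervals, with Ifit2 at −0.97 (−1.79 to −0.15) and Ifit1 at −0.90 (−1.83 to 0.03). Others gave small differences, among them Oas1a at 0.03 (−0.66 to 0.71) and Isg15 at −0.33 (−1.51 to 0.84). For Isg15 an interval this wide leaves room for a difference of over 1 in log2. The median of the 79 genes was −0.12 against 0.00 for all genes, 59 of them lay below 0, and 16 had Midostaurin values wholly below the Momelotinib values against 4.09% of all genes. Members of a list were measured in the same libraries, so counts of directions, here and below, are descriptions only. Summed over the list, ISGs made up 1.46% to 1.80% of the normalized values with Midostaurin, 1.79% to 2.49% with Momelotinib and 2.28% to 4.07% in DMSO, so the ranges of the 2 compounds met at their edges and Momelotinib also overlapped DMSO.

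Genes of the machinery that induces interferon gave 1 call among 20 tested of a list of 24, Ifnb1 itself, which was lower (0.126% of all genes). The transcript of Tbk1, the kinase on which the concentration of Midostaurin was set, differed by −0.01 (−0.21 to 0.19), that of Ikbke by −0.01 (−0.58 to 0.57) and that of Irf3 by 0.09 (−0.27 to 0.44). Of 28 tested genes of JAK-STAT signalling and its feedback inhibitors 1 was called, Ptpn1, which was higher (0.165% of all genes). Ptpn1 encodes PTP1B, a phosphatase that acts on JAK2 and TYK2, and it read 2914, 3161 and 2569 with Midostaurin, 2129, 1837 and 1599 with Momelotinib and 1736 to 2376 in DMSO. It was 1.55-fold higher with Midostaurin (0.64 ± 0.15, adjusted p = 0.0241), but it kept the call only without Midostaurin replicate 3 or Momelotinib replicate 1 and otherwise had an adjusted p of 0.144 to 0.544. Cish, a STAT5-induced feedback inhibitor, differed by 0.71 (0.30 to 1.13, adjusted p = 0.166), and Socs3 by 0.18 (−0.14 to 0.51).

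Chemokine genes leaned lower with Midostaurin, and 1 of 18 tested passed the threshold, in the lower direction (0.126% of all genes). Ccl2, the main chemoattractant of monocytes, read 4316, 3159 and 4319 with Midostaurin and 7594, 6691 and 8054 with Momelotinib. The Momelotinib values of Ccl2 lay in or just under the range of the DMSO samples, which ran from 6977 over a median of 7788 to 8431, and all Midostaurin values were below both groups. The mean was 1.89-fold lower with Midostaurin (−0.93 ± 0.14, adjusted p = 4.65e-06), and the highest adjusted p with a library left out was 0.00430. Over the 18 genes the median difference was −0.51, next to −0.0002 for all genes. Of them 17 lay below 0 and 6 did not overlap in this direction, against 4.09% of all genes. Ccl4, a chemokine that attracts monocytes and T cells, read 35952, 22671 and 36569 against 63409, 45638 and 50837 (−0.77, −1.22 to −0.32), with an adjusted p of 0.187 that became 0.00884 with the replicate block. For Cx3cl1, a membrane-bound chemokine, the values 319, 389 and 482 against 754, 900 and 1019 gave −1.17 (−1.98 to −0.37) with an adjusted p of 0.512, or 0.000438 with the block. Both genes thus passed only when samples were compared within replicate numbers. Cx3cl1 overlaps Gm51543 on the opposite strand, and Gm51543 was also lower with the block (125, 124 and 212 against 288, 351 and 429). Cxcl10, an ISG that attracts T cells, differed by −0.44 (−1.11 to 0.24).

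None of the 19 tested genes for other inflammatory cytokines was called. Tnf read 3171, 3320 and 5574 with Midostaurin and 7962, 8628 and 8244 with Momelotinib, against 6668 to 8932 in DMSO. The groups did not overlap, but Midostaurin replicate 3 lay well above the other two and the difference of −1.09 (−1.79 to −0.39) had an adjusted p of 0.340, or 0.221 with the block. Tnf passed in 3 other fits, at 0.00843 with only the compared groups, 0.0142 with the block and the mitochondrial share and 0.00430 with only the 6 samples and the block. Il6 differed by −0.64 (−1.63 to 0.35), Il12b by −0.51 (−1.17 to 0.14) and Il1b by 0.17 (−0.77 to 1.11). Tnfsf9, the ligand of the costimulatory receptor 4-1BB, was called higher only with the block (1.08, 0.36 to 1.80, adjusted p = 0.430 without the block and 0.0385 with it). Among 22 tested genes of NF-kB and its feedback inhibitors none passed the main test, with Nfkbia, the gene of IκBα, at 0.03 (−0.17 to 0.24). Nfkbiz, which encodes the nuclear cofactor IκBζ, was lower with the block alone (−0.45, adjusted p = 0.124 without it and 0.0265 with it).

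**Figure D3:**
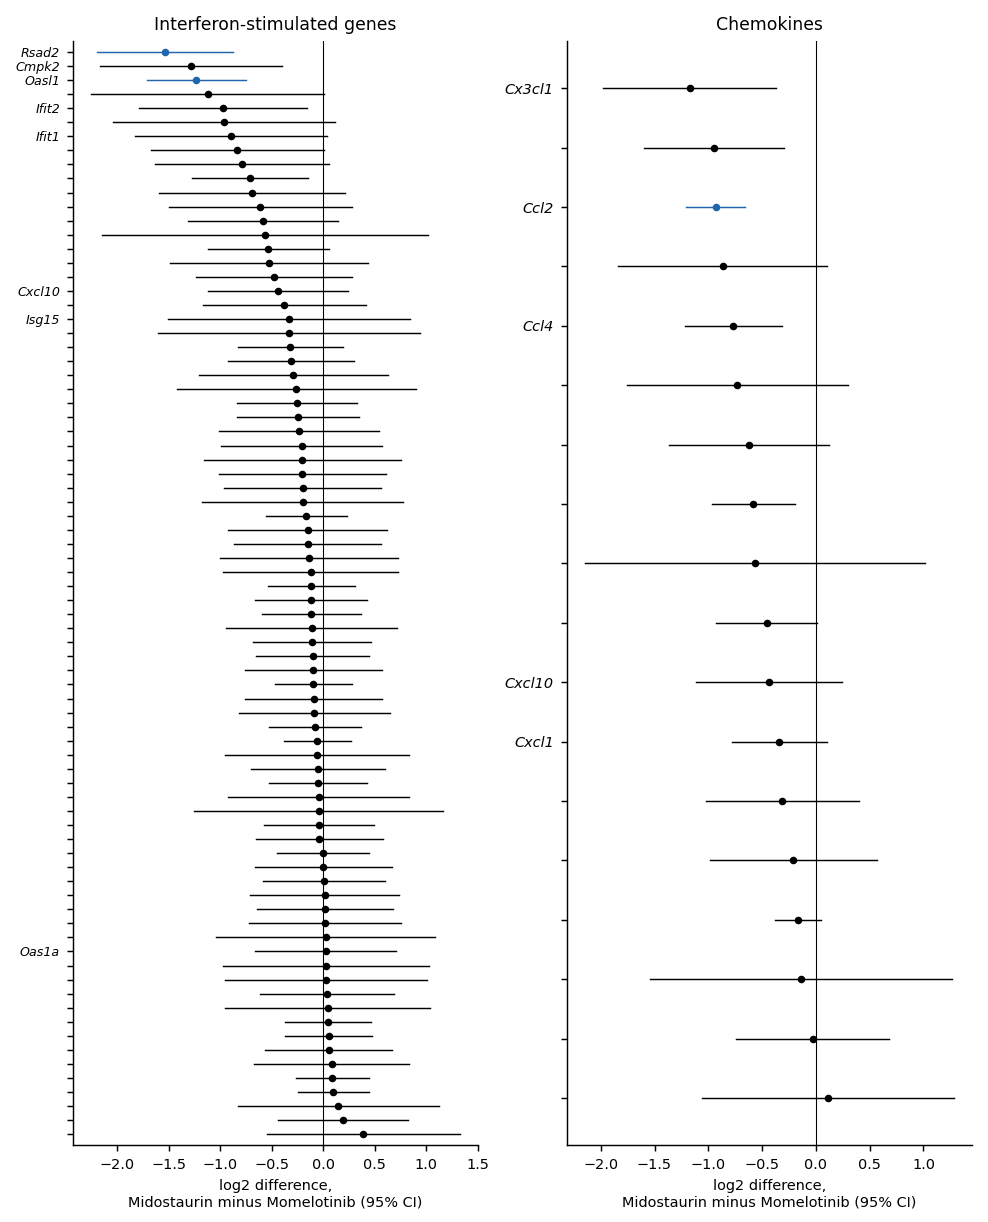
Log2 difference of Midostaurin minus Momelotinib with its 95% confidence interval for 78 of the 79 tested ISGs and the 18 tested chemokine genes, sorted by value, with genes past the threshold in blue and the genes given in the text labelled. Only Rsad2, Oasl1 and Ccl2 are past it, and 58 of the 78 ISGs and 17 chemokine genes lie below 0.

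Of 24 tested genes of the immediate-early class, 2 were higher (0.165% of all genes), 2 were lower (0.126%) and 20 were not called. Myc, which drives growth and biosynthesis, read 1382, 1492 and 1226 with Midostaurin and 478, 534 and 603 with Momelotinib. Midostaurin samples lay above all others, since Myc in DMSO was 212 to 398. The mean was 2.54-fold higher with Midostaurin (1.34 ± 0.26, adjusted p = 0.00106). Fosl2, a Fos-family subunit of AP-1, read 1294, 1172 and 1100 against 591, 437 and 286, and the DMSO samples ran from 259 to 834. It was 2.71-fold higher (1.5 ± 0.36, adjusted p = 0.0241), but without any library other than Momelotinib replicate 1 its adjusted p was 0.0738 to 0.593. With all samples and the replicate block the adjusted p of Fosl2 was 2.02e-09. Fos at −0.16 (−0.51 to 0.18), Junb at 0.17 (−0.30 to 0.65) and Egr1 at 0.04 (−1.13 to 1.21) were not called.

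Atf3, a stress-induced factor that restrains inflammatory genes in macrophages, stepped down from DMSO over Momelotinib to Midostaurin. Its values were 1955, 1972 and 1796 with Midostaurin, 3145, 3333 and 3650 with Momelotinib and 5695 to 8642 in DMSO, with no overlap between any of the groups. The mean was 1.77-fold lower with Midostaurin (−0.82 ± 0.15, adjusted p = 0.000457). Klf6, a zinc-finger factor, read 4398, 5081 and 3780 against 6373, 7561 and 5876, a 1.49-fold lower mean (−0.58 ± 0.12, adjusted p = 0.00621). The Momelotinib values of Klf6 lay around the DMSO range of 5409 to 7442, and the call was lost without Midostaurin replicate 3 (adjusted p = 0.189) or Momelotinib replicate 2 (0.241). Cited2, a coregulator that binds the CREB-binding protein, read 85, 81 and 95 against 127, 141 and 168, and the DMSO samples were at 159 to 239. It was 1.67-fold lower (−0.73 ± 0.18, adjusted p = 0.0425), with an adjusted p of 0.0754 to 0.619 without any library other than Momelotinib replicate 1.

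Sgk1 gave the smallest p of all genes. It encodes a kinase that is induced by serum and glucocorticoids and acts downstream of PI3K, and it read 258, 267 and 301 with Midostaurin, 605, 707 and 747 with Momelotinib and 1259 to 1479 in DMSO. As with Atf3, the 3 groups were fully separate. The mean was 2.49-fold lower with Midostaurin (−1.31 ± 0.15, adjusted p = 3.55e-11), and no left-out library raised the adjusted p above 5.73e-08. Ppp1r15a, the stress-induced subunit of a phosphatase that restores translation, read 631, 435 and 515 against 1151, 887 and 907. The DMSO samples were at 1182 to 1539, above the samples of both compounds. It was 1.86-fold lower (−0.90 ± 0.16, adjusted p = 0.000435). None of the 22 tested genes of the ATF4 and unfolded-protein stress list was called, among them Atf4 at 0.05 (−0.16 to 0.27) and Ddit3 at −0.01 (−1.07 to 1.04). The 22 differences ran from −0.77 to 2.22 with a median of −0.17, and 16 lay below 0. Without overlap, 4 were lower and 1 was higher, against 4.09% and 4.2% of all genes. Sgk1 and Ppp1r15a overlap the genes Gm46215 and Tulp2 on the opposite strand, and the counting is not stated to use strand, so reads of such pairs cannot be told apart.

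Genes of MAP kinase feedback inhibitors held 1 call among 14 tested, which was higher (0.165% of all genes). Of the 14 differences 12 lay above 0, with a median of 0.27 next to −0.0002 for all genes. Dusp14, a MAP kinase phosphatase, read 71, 62 and 50 with Midostaurin and 24, 16 and 20 with Momelotinib, against 12 to 50 in DMSO. It was 3.05-fold higher (1.57 ± 0.36, adjusted p = 0.0149) and kept the call only without Midostaurin replicate 3 or Momelotinib replicate 1, with 0.0901 to 0.230 otherwise. Dusp1 at −0.07 (−0.97 to 0.84) and Dusp6 at 0.50 (−0.09 to 1.09) were not called. Phlda1, a pleckstrin homology-like protein, read 1126, 1200 and 596 against 265, 292 and 230. Midostaurin replicate 3 was the lowest of its group but still above every Momelotinib and DMSO sample, the latter at 170 to 267. Phlda1 was 3.71-fold higher with Midostaurin (1.83 ± 0.35, adjusted p = 0.000777).

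In the list of G protein-coupled receptors and regulators of G-protein signalling 2 of 29 tested genes were called, both higher (0.165% of all genes), and 3 with the block (0.425%). Outside the list Gpr146 was called higher and S1pr2 lower, so calls on receptors of this kind went in both directions. Gpr35 read 64, 66 and 74 with Midostaurin, 11, 17 and 22 with Momelotinib and 5 to 17 in DMSO. This was a 4.08-fold higher mean (2.01 ± 0.44, adjusted p = 0.00811), with the adjusted p at 0.0530, 0.0666 and 0.131 without Midostaurin replicate 2 or 3 or Momelotinib replicate 1. P2ry2, a receptor for extracellular ATP and UTP, read 2531, 2597 and 1890 against 1665, 1581 and 1541, with DMSO at 1282 to 1568. Its Midostaurin values were above all others, its mean was 1.47-fold higher (0.54 ± 0.14, adjusted p = 0.0479), and it kept the call only without Midostaurin replicate 3, with 0.0916 to 0.512 without another library. Gpr146, an orphan receptor, read 798, 919 and 559 against 296, 279 and 209, and its Momelotinib values lay within the DMSO range of 171 to 364. It was 2.90-fold higher (1.52 ± 0.27, adjusted p = 0.000273), though its gene overlaps 3110082I17Rik on the opposite strand. Adora3, a receptor for adenosine, passed with the block only (127, 104 and 124 against 54, 24 and 20, 1.95, 0.72 to 3.19, adjusted p = 0.301 without the block and 0.0161 with it). Adora3 lies within Tmigd3 on the same strand, and Tmigd3 was also called with the block (82, 65 and 74 against 29, 16 and 7). Reads of these 2 genes cannot be told apart.

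Sphk1 and S1pr2 were called in opposite directions and are placed together, after their values were seen, because both concern sphingosine 1-phosphate. Sphk1, the kinase that makes this lipid mediator, read 250, 165 and 159 with Midostaurin and 97, 46 and 41 with Momelotinib, with DMSO at 38 to 110. It was 3.12-fold higher (1.70 ± 0.43, adjusted p = 0.0435), and without any library other than Momelotinib replicate 1 the adjusted p was 0.0967 to 0.593. With all samples and the replicate block the adjusted p of Sphk1 was 0.000164. S1pr2, a receptor for the same lipid, read 371, 506 and 486 against 773, 940 and 1054, with DMSO at 934 to 2073, a range that held 2 of the 3 Momelotinib values and none of the Midostaurin values. Each Momelotinib value was below both DMSO samples of the same replicate number. Against DMSO, Momelotinib gave −0.62 ± 0.22 (adjusted p = 0.240, or 0.0143 with the replicate block). S1pr2 was 2.03-fold lower with Midostaurin than with Momelotinib (−1.02 ± 0.26, adjusted p = 0.0415), or 0.0902 to 0.506 without any library other than Momelotinib replicate 1. With all samples and the replicate block the adjusted p of this difference was 7.39e-05. S1pr1, another receptor of this family, read 760, 608 and 545 against 358, 287 and 321 and was called higher with the block only (0.98, 0.39 to 1.56, adjusted p = 0.199 without it and 0.0157 with it). The direction thus differed between these receptor genes, S1pr2 being lower and S1pr1 higher with Midostaurin.

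Il4ra, Acvr1b, Tnfsf14 and Kcnj2 were higher with Midostaurin. Il4ra, the receptor chain shared by IL-4 and IL-13, read 19423, 18100 and 16126 against 10832, 6802 and 6661, with DMSO at 7673 to 11680. It was 2.21-fold higher (1.18 ± 0.28, adjusted p = 0.0272), but 0.0698 to 0.416 without any library other than Momelotinib replicate 1. With all samples and the replicate block the adjusted p of Il4ra was 0.00256. Acvr1b, the type I activin receptor ALK4, read 625, 541 and 486 against 311, 219 and 165, with DMSO at 96 to 257. It was 2.38-fold higher (1.29 ± 0.31, adjusted p = 0.0241), and 0.0610 to 0.593 without any library other than Momelotinib replicate 1. In both genes every Midostaurin sample exceeded every other sample. Tnfsf14, the TNF-family ligand LIGHT, read 521, 410 and 344 against 158, 199 and 193, above a DMSO range of 66 to 161 in all but 1 Momelotinib sample. It was 2.32-fold higher (1.19 ± 0.29, adjusted p = 0.0272) and kept the call only without Midostaurin replicate 3, with 0.0956 to 0.407 without another library. Kcnj2, an inwardly rectifying potassium channel, read 113, 95 and 74 against 30, 45 and 41, with DMSO at 19 to 80. Here 1 Midostaurin sample fell within the DMSO range. Kcnj2 was 2.43-fold higher than with Momelotinib (1.26 ± 0.29, adjusted p = 0.0130), and 0.256, 0.0891 and 0.177 without Midostaurin replicate 1 or 2 or Momelotinib replicate 1. Targets of BMP receptors and SMADs held no call among 7 tested genes, with Id1 at 0.75 (−0.32 to 1.82).

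In Ttc14 and Necap1 the Momelotinib samples stood above DMSO. Ttc14, a tetratricopeptide repeat protein, read 64, 128 and 79 with Midostaurin and 296, 353 and 304 with Momelotinib. The Midostaurin values lay inside the DMSO range of 28 to 169, and those of Momelotinib were all above it. Ttc14 was 3.52-fold lower with Midostaurin (−1.86 ± 0.39, adjusted p = 0.00567), with 0.157 without Midostaurin replicate 1 and 0.0685 without Momelotinib replicate 2, and it overlaps Ccdc39 on the opposite strand. Necap1, which takes part in clathrin-mediated endocytosis, read 261, 350 and 349 against 519, 744 and 722. The DMSO samples, at 378 to 516, lay between the compounds without overlapping either. Necap1 was 2.07-fold lower with Midostaurin than with Momelotinib (−1.04 ± 0.19, adjusted p = 0.000435).

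Otud1, Gypc and Slc25a37 were lower and Rnf125 was higher with Midostaurin. Otud1, a deubiquitinase, read 18, 22 and 24 with Midostaurin, 53, 50 and 55 with Momelotinib and 64 to 125 in DMSO, again a descending order without overlap. It was 2.47-fold lower (−1.27 ± 0.30, adjusted p = 0.0175), kept the call only without Midostaurin replicate 3 (0.0738 to 0.256 without another library) and overlaps Gm3230 on the opposite strand. Rnf125, a ubiquitin ligase that can target RIG-I, read 56, 70 and 50 against 28, 11 and 14, with DMSO at 24 to 41. It was 3.32-fold higher (1.77 ± 0.40, adjusted p = 0.0148), with 0.0865 to 0.289 without Midostaurin replicate 1 or 2 or Momelotinib replicate 2 or 3. The DMSO samples lay below the Midostaurin samples and mostly above those of Momelotinib. Gypc, the membrane protein glycophorin C, read 143, 113 and 120 against 288, 213 and 211, under a DMSO range of 378 to 594. It was 1.89-fold lower (−0.91 ± 0.19, adjusted p = 0.00449), with 0.0817 without Midostaurin replicate 2 and 0.119 without Momelotinib replicate 1. Slc25a37, the mitochondrial iron importer mitoferrin 1, read 237, 206 and 217 against 350, 357 and 300. Its Midostaurin values were below the DMSO range of 276 to 491 and its Momelotinib values inside it. Slc25a37 was 1.53-fold lower (−0.61 ± 0.15, adjusted p = 0.0405) and lost the call without any single library (0.0542 to 0.303). It shares its position with Gm27222 and Gm31896.

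Among the enzymes, Gfpt2, which feeds glucose into hexosamine synthesis, read 48, 38 and 30 with Midostaurin and 10, 17 and 3 with Momelotinib, with DMSO at 4 to 16. The Midostaurin values were above all others at this low level. Gfpt2 was 3.87-fold higher (2.07 ± 0.51, adjusted p = 0.0361), but 0.0698 to 1.00 without any library other than Momelotinib replicate 2. B3gnt7, a glycosyltransferase, read 259, 218 and 280 against 119, 62 and 89, with DMSO at 62 to 76. It was 2.80-fold higher (1.52 ± 0.33, adjusted p = 0.00703), with 0.0612, 0.0698 and 0.241 without Midostaurin replicate 1 or 3 or Momelotinib replicate 2. Plekhf1, an endosomal phosphoinositide-binding protein, read 958, 714 and 616 against 407, 246 and 196, with DMSO at 249 to 520. Again every Midostaurin sample exceeded the rest. Plekhf1 was 2.69-fold higher (1.47 ± 0.34, adjusted p = 0.0149), with 0.0817 to 0.432 without Midostaurin replicate 1 or 2 or Momelotinib replicate 2 or 3. With all samples and the replicate block its adjusted p was 4.70e-06. Gfpt2 and B3gnt7 overlap Gm36507 and Gm28626 on the opposite strand. The non-coding gene Gm38515, antisense to Lmo2, read 3, 0 and 0 against 5, 8 and 11 and is at the edge of detection, so no fold is given. Its difference of −2.45 ± 0.54 (adjusted p = 0.00930) became −0.71 with a pseudocount of 10 (adjusted p = 0.836), and it was not called without Midostaurin replicate 2 or 3 or Momelotinib replicate 2 or 3 (0.0778 to 0.192).

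The last 4 DEGs had smaller differences, all higher with Midostaurin, and are named here after their values were seen. Smim3, a small membrane protein, read 3151, 3236 and 2743 against 1811, 1766 and 1583, with DMSO at 1498 to 2049. Momelotinib and DMSO shared 1 range and Midostaurin stood above it, 1.77-fold over Momelotinib (0.82 ± 0.14, adjusted p = 0.000109). Tmem268, a transmembrane protein, differed by 0.79 ± 0.16 (adjusted p = 0.00434), or 0.152 without Midostaurin replicate 2 and 0.106 without Momelotinib replicate 2. Tmbim1, a membrane protein of the BAX-inhibitor family, differed by 0.35 ± 0.08 (adjusted p = 0.00859), or 0.256 without Midostaurin replicate 1 and 0.301 without Momelotinib replicate 3. The zinc-finger gene Zkscan6 differed by 0.56 ± 0.14 (adjusted p = 0.0376), or 0.0540 to 0.679 without any library other than Momelotinib replicate 1. Tmem268 and Tmbim1 overlap Gm24448 and Pnkd on the opposite strand.

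The lists of other cellular programmes gave no call in the main test. There was none among 29 tested genes of sterol and fatty acid synthesis, 9 liver X receptor targets, 8 aryl hydrocarbon receptor targets, 22 genes of glycolysis and hypoxia, 15 NRF2 antioxidant genes, 14 p53 targets, 13 genes repressed by PI3K and AKT, 19 Toll-like receptors and co-receptors, 21 effector enzyme and inflammasome genes, 23 genes of antigen presentation and costimulation, 30 cell cycle genes and 13 mitochondrially encoded genes. The 25 tested genes of kinases known as targets of either compound gave none either, with Csf1r at −0.03 (−0.16 to 0.10) and Jak2 at 0.47 (−0.15 to 1.09). These 25 differences ran from −0.19 to 1.05 with a median of −0.01. Without overlap, 3 were higher and 0 lower, against 4.2% and 4.09% of all genes. With the replicate block 2 effector enzymes were called higher, Arg2, an arginase, at 1.23 (0.44 to 2.01, adjusted p = 0.326 without the block and 0.00938 with it) and Ptges, the inducible prostaglandin E synthase, at 1.15 (0.54 to 1.77, 0.0954 without and 0.00818 with it). Slc2a1, the glucose transporter GLUT1, was called with the block at 0.48 (0.21 to 0.75, 0.124 without and 0.0491 with it). The medians of these lists lay between −0.15 for the p53 targets and 0.15 for the mitochondrially encoded genes, next to 0.00 for all genes.

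Against the 6 DMSO samples Midostaurin changed 580 genes (4.56%), 335 up (2.63%) and 245 down (1.93%), and Momelotinib changed 100 (0.787%), 48 up (0.378%) and 52 down (0.409%). With median-of-ratios scaling, which moved the median of all genes by −0.10 and −0.09, the splits turned to 198 up and 351 down and to 24 up and 74 down, so the balance of directions depends on the scaling. Against 1 DMSO set of 3 samples Momelotinib changed 38 or 43 genes, and with only the compared groups in the fit it changed 5. With the replicate block Midostaurin changed 935 (7.35%), 589 up (4.63%) and 346 down (2.72%), and Momelotinib 226 (1.78%), 139 up (1.09%) and 87 down (0.684%). Both counts rest on the same DMSO samples, so values are only placed side by side. Ifnb1 was at −3.36 ± 0.40 with Midostaurin (adjusted p = 1.12e-10) and at −0.87 ± 0.40 with Momelotinib (0.414). Rsad2 was at −2.88 ± 0.29 (3.34e-14) and −1.34 ± 0.29 (0.00358), Atf3 at −1.81 ± 0.13 (2.38e-23) and −0.99 ± 0.13 (4.26e-08), and Sgk1 at −2.28 ± 0.13 (1.02e-32) and −0.97 ± 0.13 (4.26e-08). These 3 genes were lower than DMSO with both compounds. Ccl2 was at −0.98 ± 0.12 with Midostaurin (5.12e-10) and −0.05 ± 0.12 with Momelotinib (0.933), and Myc at 2.02 ± 0.22 (5.98e-12) and 0.68 ± 0.22 (0.168). Phlda1, Gpr146 and Smim3 were at 2.1, 1.51 and 0.78 with Midostaurin, all called, and at 0.27, −0.01 and −0.04 with Momelotinib, none called. Ttc14 had the opposite layout, at 0.25 ± 0.34 with Midostaurin (0.774) and 2.11 ± 0.34 with Momelotinib (1.46e-05). Necap1 passed against DMSO with neither compound, at −0.46 ± 0.16 (0.0890) and 0.58 ± 0.16 (0.0682), or 0.00190 and 0.000322 with the block and 0.00816 and 0.0975 with median-of-ratios scaling. Of the 79 ISGs 26 were lower than DMSO with Midostaurin (1.93% of all genes) and 7 with Momelotinib (0.409% of all genes), with medians of −0.64 and −0.58. Of the 18 chemokine genes Midostaurin gave 2 higher (2.63% of all genes) and 3 lower (1.93%). Momelotinib gave 3 higher (0.378%) and none lower (0.409%). Cxcl1, a neutrophil chemoattractant, was above DMSO with both, at 1.01 ± 0.19 and 1.35 ± 0.19, and between the compounds it differed by −0.34 (−0.78 to 0.10).

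**Figure D4:**
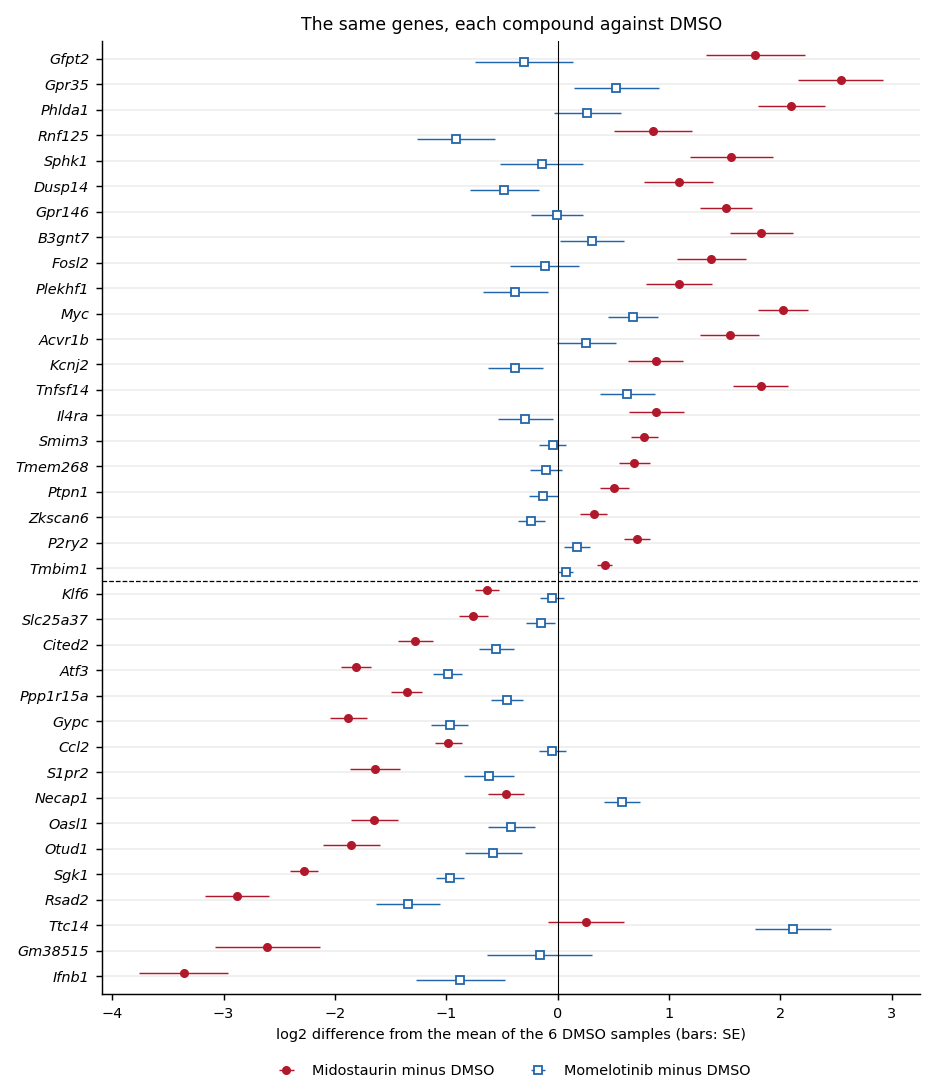
Log2 difference from the 6 DMSO samples ± SE (horizontal axis) for the 37 DEGs of the direct comparison, with 1 point for Midostaurin and 1 for Momelotinib in each row. Ifnb1 lies at −3.36 with Midostaurin and −0.87 with Momelotinib, while Ttc14 lies at 0.25 and 2.11.

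Among the 58 CKIs each of the pair was the other's nearest neighbour by the median absolute log2 difference. At 0.113 it was the smallest of the 57 pairs with Midostaurin, whose medians reached 0.325, and the smallest of the 57 with Momelotinib, whose medians reached 0.315. The next partners of Midostaurin were the p38 inhibitor Talmapimod at 0.137 and Vandetanib, an inhibitor of VEGF receptors, at 0.139. Those of Momelotinib were Vandetanib at 0.122 and the JAKi Ruxolitinib at 0.126. By the number of DEGs the 2 sides differed. No partner of Midostaurin gave fewer than the 37 of Momelotinib, over a range of 37 to 3204 and a median of 336, whereas 21 of the 57 partners of Momelotinib gave fewer, among them Ruxolitinib with 5, over a range of 4 to 2826 and a median of 59. Among all 1653 pairs 36 had a smaller median difference (2.18%), but 939 had fewer DEGs (56.8%). A pair can thus be close in its median gene and still hold more DEGs than most pairs. These ranks are descriptions of pairs that share samples.

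**Figure D5:**
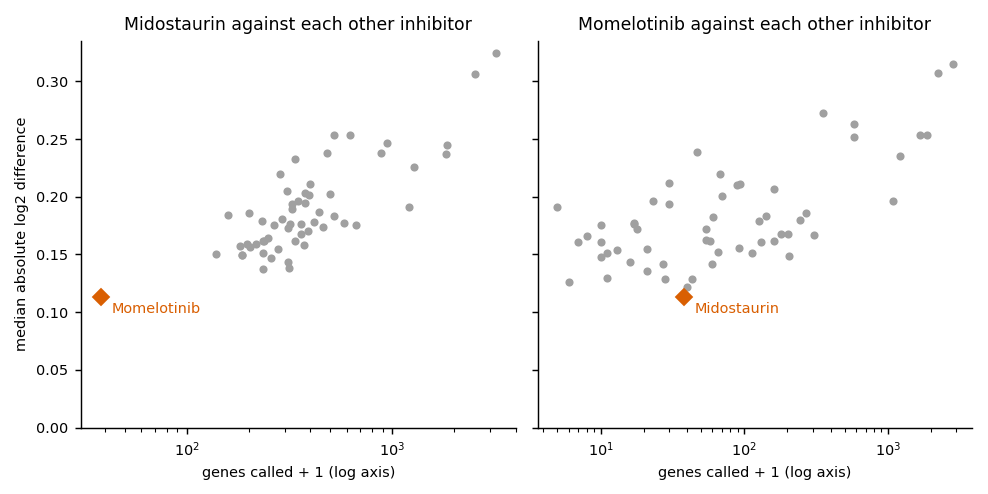
Median absolute log2 difference (vertical axis) against the number of genes called + 1 (horizontal axis, log scale) for the 57 pairs with Midostaurin and the 57 pairs with Momelotinib, 1 point a pair. The pair of Midostaurin and Momelotinib, at 0.113 and 37 genes, is the lowest point of both panels and the leftmost of the Midostaurin panel.

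RefSeq promoter windows were found for 29 of the 37 DEGs, 17 of the higher and 12 of the lower genes. Some genes have several windows, and a gene is counted if any of them matched, beside the share of all 27025 genes counted in the same way. The ISRE letters, present in 3.46% of genes, were in 1 of the 17 (Fosl2) and in 3 of the 12 (Ppp1r15a, Rsad2 and Sgk1). The AP-1 motif TGANTCA, in 7.82%, was in 4 of the 17 (Gfpt2, Gpr35, Sphk1 and Tnfsf14) and in 1 of the 12 (Rsad2). The looser AANNGAAA, in 23.9%, was in 3 of the 17 and in 5 of the 12, which were Ifnb1, Oasl1, Ppp1r15a, Rsad2 and Sgk1. Every window with the ISRE also holds AANNGAAA, since the letters overlap. The stricter NF-kB motif, GGG and TTTCC with 2 free bases between them, in 1.65%, was in none of the 29, and the looser one, in 48.7%, was in 14 of the 17 and 8 of the 12. The GAS motif TTCNNNGAA, in 8.13%, was in 4 and in 1 (Sgk1), the XRE TTGCGTG, in 1.08%, in none, and the EGR motif GCGTGGGCG, in 0.622%, in 1 (Plekhf1). Both looser motifs were chosen after the data were seen. The counts describe letters on either strand and not bound sites.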

How the data were processed

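BMDM RNA was sequenced as polyA libraries made by SMART-seq2. The authors aligned reads with TopHat2 2.1.1 to mm10, kept 1 alignment a read, removed blacklisted regions (bedtools 2.29.2), counted reads on exons of curated RefSeq genes, scaled samples on invariant genes and rounded. The deposited values are therefore a score, called normalized values here, which the authors tested with DESeq2 without its own normalization. Samples and columns were matched by label. Here limma 3.58.1 in R 4.3.3 was fitted to log2(normalized value + 1) with a variance trend over all 180 samples and 59 treatments, for 12714 genes averaging 10 or more, with Benjamini-Hochberg adjustment. p-values measure the spread between these samples. Deviations of same-numbered samples correlated at 0.308, 0.433 and 0.126, and those of differently numbered samples at −0.367 to 0.117. The highest of the latter, Midostaurin replicate 3 with Momelotinib replicate 1, was close to the value of 0.126 for replicate 3. A pairing by replicate number, which comes from the labels, is therefore not certain. All 3 values of same-numbered samples still lay above all the others. In the direct comparison the block lowered the median SE from 0.251 to 0.218. Genes at an unadjusted p under 0.05 in limma's test went from 409 (3.22%) to 602 (4.73%). Blocked values are given for named genes where they change a call of the direct comparison, and beside some other values. Read numbers were estimated from gaps that scaling and rounding leave in the values. Genes named are list members and the 15 largest differences in each direction. Members and lists were chosen with earlier results of these data known. Alternatives changed the pseudocount, filter, scaling, variance trend, samples in the fit, block, threshold and replicates. The main fit was also run on simulated data with independent noise in each sample and no replicate effect. That run cannot give the error rate for the real samples, where a replicate block changed calls. Promoter sequences are RefSeq GRCm38.p6. Figures used matplotlib 3.10.9. Some genes are not reported here.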

Additional observations from a re-analysis of the deposited data

Results flagged for a closer look

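The 37 DEGs were examined for a DMSO sample far from the others, and 2 had one. Klf6 read 5409 in replicate 3 of the first DMSO set, while the 6 DMSO samples had a median of 6943 and a highest value of 7442. Ifnb1 read 262 in replicate 1 of the second DMSO set, above a median of 92.5. Chance alone flags about 1 in 20 groups of this size, so 2 of 37 is about that rate. Neither sample enters the direct comparison of Midostaurin and Momelotinib. Both enter the values against DMSO.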

How the results depend on the processing

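The 37 DEGs of the direct comparison became 264 without a filter, 65 with only the compared groups in the fit, 83 with the replicate block, 107 with the block and the mitochondrial share, 24 at a log2 difference of at least 1 and, in a fit chosen after seeing the data, 157 with only the 6 samples and the block. With 1 replicate left out they were 16 to 29. Pseudocounts of 0.5 and 10, the other filters, median-of-ratios scaling and no variance trend kept the count within 1.5 times. The genes changed by Midostaurin against DMSO became 231 with only the compared groups, 935 with the block, 1179 with the block and the mitochondrial share, 206 at a log2 difference of at least 1, 328 against DMSO set 1 and 313 to 366 with 1 replicate left out. Those changed by Momelotinib became 259 without a filter, 5 with only the compared groups, 226 with the block, 354 with the block and the mitochondrial share, 28 at a log2 difference of at least 1, 38 and 43 against DMSO set 1 and set 2 and 26 to 61 with 1 replicate left out. The 2 ISGs called became 8 with only the 6 samples and the block and 0 to 2 with 1 replicate left out. The higher number without a filter comes with more genes tested, and the other causes were not tested. Nfkbia, uncalled throughout, lay between −0.020 and 0.073 with 1 replicate left out, below 0 without Midostaurin replicate 2 or Momelotinib replicate 1. Ifnb1, Phlda1, Gpr146, Myc, Necap1 and Sgk1 kept their direction and their call under every alternative run. The block changed no call of a list other than those given beside the results. The direct pair kept its place as nearest neighbours under a pseudocount of 10, a filter of 50, median-of-ratios scaling and the block, all chosen after seeing the data, and its rank by DEGs among all pairs was 795 to 956. Differences in genes near the filter of 10 were detectable at this depth only where large.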

Other observations

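With the replicate block 46 genes beyond the 37 passed the threshold, and those named here were chosen after their values were seen. Higher with Midostaurin were Tnfrsf9, the costimulatory receptor 4-1BB, at 118, 111 and 171 against 55, 31 and 29 (1.80, adjusted p = 0.122 without the block and 0.0484 with it), Mmp19, a matrix metalloproteinase, at 362, 359 and 412 against 204, 164 and 132 (1.19, 0.0696 and 0.000374), and Timp1, a metalloproteinase inhibitor, at 138, 104 and 120 against 55, 35 and 31 (1.59, 0.252 and 0.0151). Bach1, a repressor of haem and antioxidant genes, read 857, 793 and 779 against 632, 374 and 415 (0.81, 0.187 and 9.46e-05). Lower with Midostaurin were Rasgef1b, a guanine nucleotide exchange factor, at 503, 489 and 390 against 760, 1115 and 903 (−0.997, 0.0696 and 0.00993) and Rab9, a small GTPase of endosomal transport, at 409, 323 and 358 against 672, 495 and 500 (−0.60, 0.277 and 0.00884). In all of these genes the 3 values of each compound did not overlap. Mmp19 overlaps Tmem198b on the opposite strand, and Tmem198b was also called higher with the block.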
